A study of Mus musculus with 20 samples.

Results

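CTCF, MAZ and RAD21 were compared with each other in untreated parental mouse embryonic stem cells, by chromatin immunoprecipitation with sequencing (ChIP-seq). The members were all peaks of the 3 lists called in these cells, 26394 for CTCF, 6265 for MAZ and 20371 for RAD21, together 53030 of the 136043 peaks of the series. Peaks of different lists that overlapped by at least 1 bp were joined into regions, which gave 34784 regions named by the factors that had a peak there. The series has 20 samples, of which 12 came with a peak list: every antibody had a single list per condition. All cells were of the E14 line, grown in LIF and 2i, with CTCF fused to an auxin-inducible degron (AID), which has the protein degraded once auxin is given. The parental cells were left untreated (WT) or given auxin for 2 days (ΔCTCF), and cells of that background with a Maz knockout, 1 clone, were left untreated (ΔMAZ) or given auxin (ΔCTCF/ΔMAZ). WT cells therefore carry the CTCF tag as well. The 8 samples without a list, not analysed here, include another sample each for CTCF and MAZ in untreated parental cells. With 1 list per antibody among those analysed there was no replicate check and no test was made, so intervals below are Wilson 95% intervals that cover counting error over peaks only.

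CTCF is a zinc finger protein that binds a long, directional DNA motif and stops cohesin as it extrudes chromatin loops. RAD21 is the kleisin subunit that closes the cohesin ring, and its ChIP-seq peaks mark where cohesin accumulates. MAZ is a zinc finger protein that binds G-rich sequence, often at promoters rich in CpG dinucleotides.

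The 3 lists differed in depth. The lists hold no read totals, so an index of depth was taken from the background that each list implies, and relative to RAD21 WT it was 2.79 for MAZ WT and 0.443 for CTCF WT. Fold enrichment (the read pileup at a summit over the local background) is therefore ranked only within a list. Its median was 13.3 in CTCF WT (from 2.02 to 77.1), 5.11 in MAZ WT (1.30 to 31.2) and 10.0 in RAD21 WT (1.49 to 97.8). The labels were checked against the lists of the cells that lack each protein. Of the CTCF peaks of WT, 8.83% were called again in ΔCTCF, and of the MAZ peaks 0.0798%, 5 peaks, were called again in ΔMAZ.

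Sequences of 60 bases around summits (RefSeq genome, build GRCm38, which is mm10) give examples of strong regions, chosen after they were seen, to show the motif where it was found. Each is among the regions of its combination whose weakest factor ranked highest, outside exons. Capitals mark a match to the CTCF motif, learned from 2000 strong CTCF peaks of even-numbered chromosomes with the consensus GGCCACNAGGGGGCGCNN, on either strand, and each sequence is the plus strand of the genome. The motif was not always there: among the leading regions, the 60 bases of the first CTCF+RAD21 region, of the first CTCF only region (Psmd6) and of the CTCF+MAZ regions of Tab1 and Smarcd1 held no match. The first pair are regions with all 3 factors, centred on the CTCF summit, in an intron of the long non-coding RNA Gm38708 (chr6:88189612-88189671) and 526 bp upstream of Mlf2 (chr6:124930876-124930935). A region with CTCF and RAD21 lay between genes, 88161 bp from the nearest TSS, that of Sertad2 (chr11:20455143-20455202), and a CTCF only region lay at the promoter of the ribosomal protein gene Rpl36 (chr17:56613317-56613376). The MAZ+RAD21 region lay at the promoter of Usp42 (chr5:143732481-143732540) and the MAZ only region between genes (chr15:79878922-79878981), both centred on the MAZ summit. The last pair are RAD21 only regions centred on the RAD21 summit, with no motif match (chr4:21222810-21222869) and with one (chr12:30050353-30050412).
CTCF+MAZ+RAD21, Gm38708: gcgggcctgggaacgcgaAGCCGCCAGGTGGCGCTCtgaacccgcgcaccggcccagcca
CTCF+MAZ+RAD21, Mlf2: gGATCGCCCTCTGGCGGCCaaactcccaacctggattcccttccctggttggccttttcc
CTCF+RAD21, intergenic: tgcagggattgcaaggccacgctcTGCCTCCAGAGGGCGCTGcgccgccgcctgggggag
CTCF only, Rpl36: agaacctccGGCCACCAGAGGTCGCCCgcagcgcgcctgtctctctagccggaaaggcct
MAZ+RAD21, Usp42: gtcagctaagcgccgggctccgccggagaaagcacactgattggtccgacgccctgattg
MAZ only, intergenic: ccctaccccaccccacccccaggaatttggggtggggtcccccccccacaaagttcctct
RAD21 only, without a motif: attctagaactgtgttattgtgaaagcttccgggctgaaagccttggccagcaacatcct
RAD21 only, with a motif: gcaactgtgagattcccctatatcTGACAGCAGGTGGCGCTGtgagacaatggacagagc

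Regions with CTCF and RAD21 and no MAZ were the most frequent of the 7 combinations, with 17187 regions or 49.4% (48.9 to 49.9) of all. There were 8701 CTCF only regions, while MAZ only made up 16.0% (5558) and RAD21 only 7.57% (2634). The 3 combinations that join MAZ to a partner were rare, with 308 regions of all 3 factors (0.885%), 216 of MAZ+RAD21 and 180 of CTCF+MAZ. Regions with all 3 numbered 198 when the peaks had to overlap by 50% of each, and 93 with a −log10 q of at least 10. Of 6262 regions with MAZ, 88.8% held neither CTCF nor RAD21. Overlaps were seldom a matter of a few bases for CTCF and RAD21, whose 17528 overlapping pairs shared a median of 262 bp, with 5 pairs sharing 50 bp or less. For MAZ and RAD21, 34 of 529 pairs shared 50 bp or less, and for CTCF and MAZ 29 of 483.

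The combinations lay in different parts of the genome. A region was called a promoter where the mean of its summits lay within 1 kb of a transcription start site (TSS), and 20.4% of all regions did. Combinations with MAZ were mostly at promoters, 67.5% (62.1 to 72.5) with all 3 factors, 85.6% (79.7 to 89.9) for CTCF+MAZ, 57.9% (51.2 to 64.3) for MAZ+RAD21 and 76.3% (75.2 to 77.4) for MAZ only. Combinations without MAZ were mostly away from them, with promoter shares of 7.47% (7.09 to 7.87) for CTCF+RAD21, 8.82% for CTCF only and 11.6% for RAD21 only. With promoters drawn at 500 bp or 2500 bp, CTCF+RAD21 had 4.81% or 14.0% of its regions there. CTCF+RAD21 regions divided almost evenly between gene bodies (46.8%) and intergenic sequence (45.7%), whereas CTCF only regions were in gene bodies in 54.1% and intergenic in 37.0%. Seen from the genome, MAZ only made up 59.9% of the 7084 promoter regions, and CTCF+RAD21 made up 60.2% of the 13048 intergenic ones.

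**Figure D1:**
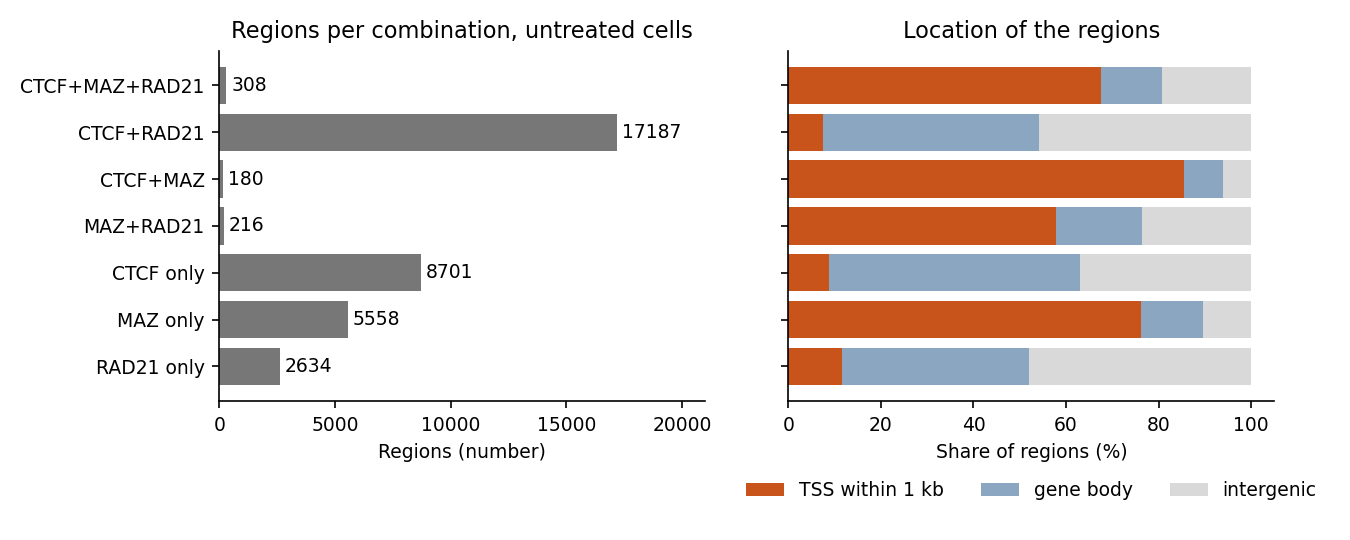
Left, the number of regions in each of the 7 combinations of CTCF, MAZ and RAD21 peaks of untreated parental cells (bars). Right, the share of each combination (%) at promoters (summit mean within 1 kb of a TSS), in gene bodies and between genes. The CTCF+RAD21 bar is the longest with 17187 regions, and every combination with MAZ has over 57% of its regions at promoters, against under 12% for those without.

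CTCF and RAD21 overlapped each other more often at their stronger peaks, and the overlaps of MAZ peaks were rare at every strength. Of RAD21 peaks 86.0% (85.5 to 86.4) overlapped a CTCF peak, and of CTCF peaks 66.3% (65.8 to 66.9) overlapped a RAD21 peak. When peaks were ranked by fold enrichment into 5 groups of nearly equal size, the share of CTCF peaks with RAD21 went from 30.3% in the weakest group through 52.1%, 72.5% and 85.0% to 91.7% in the strongest. For RAD21 peaks with CTCF the shares were 57.7%, 82.4%, 92.4%, 97.7% and 99.7%. MAZ peaks overlapped CTCF in 7.68% (7.04 to 8.36), with 7.42% in the weakest and 8.55% in the strongest group, and they overlapped RAD21 in 8.32% (7.66 to 9.03). CTCF peaks overlapped MAZ in 1.12% of the weakest and 4.02% of the strongest group. RAD21 peaks overlapped MAZ most often in their weakest group, 5.58% against between 1.49% and 2.57% in the other 4. With the 6265 strongest peaks of each list alone, 51.6% of RAD21 peaks overlapped CTCF, and MAZ peaks overlapped CTCF in 3.75% and RAD21 in 1.72%. With all peaks and an overlap of 50% of each, MAZ peaks overlapped CTCF in 4.28% and RAD21 in 4.64%.

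**Figure D2:**
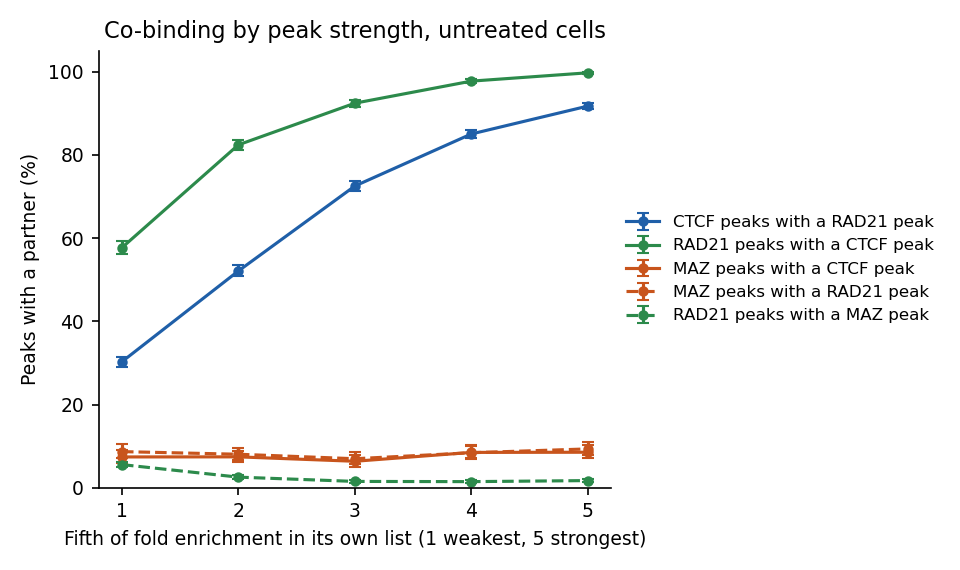
Share of peaks (%) that overlap a partner's peak in untreated cells, by group of fold enrichment in the peak's own list, from 1 (weakest) to 5 (strongest), with Wilson 95% intervals as bars. The CTCF and RAD21 lines climb to 91.7% and 99.7%, and the MAZ lines stay below 10%.

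How often a factor had a given partner differed with the presence of the other. The direction depended on the factor and, for CTCF peaks, on the location. Among MAZ peaks that overlapped RAD21, 56.6% (52.3 to 60.8) also overlapped CTCF, and among MAZ peaks without RAD21 3.24% (2.81 to 3.73) did. This was the case away from promoters too, with 50.0% against 2.37%. RAD21 peaks without CTCF overlapped MAZ in 7.87% (6.94 to 8.91), and RAD21 peaks with CTCF in 1.72% (1.54 to 1.93). At promoters the overlaps were 131 of 437 peaks without CTCF (interval 25.9% to 34.4%) and 207 of 1496 (13.8%) with it, and away from promoters 3.88% (3.18 to 4.73) and 0.593% (0.486 to 0.725). Likewise RAD21 peaks overlapped CTCF in 57.3% (53.0 to 61.5) where MAZ was present and 86.7% (86.2 to 87.2) where it was not. The share of CTCF peaks with RAD21 was 62.0% (57.5 to 66.2) where MAZ was present and 66.4% (65.8 to 67.0) where it was not, but this turned with location. At promoters it was 56.2% (51.0 to 61.3) with MAZ and 62.7% (60.5 to 64.7) without, and away from them 78.0% (70.0 to 84.3) and 66.7% (66.1 to 67.3). The share of CTCF peaks with MAZ turned too. At promoters it was 13.4% (11.8 to 15.2) with RAD21 and 16.8% (14.5 to 19.4) without, and away from them 0.618% (0.508 to 0.752) and 0.352% (0.243 to 0.508).

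The strength of a peak in its own list differed between combinations. CTCF peaks in regions with all 3 factors had a median percentile of 83.4 in the CTCF list, those with RAD21 alone 62.4, those with MAZ alone 59.9 and those by themselves 24.6. RAD21 peaks were at a median percentile of 56.7 with CTCF, 51.0 with both partners, 16.6 by themselves and 9.43 with MAZ alone. Of the RAD21 peaks in MAZ+RAD21 regions 77.8% fell in the weakest group of the list and 0 in the strongest. MAZ peaks had medians of 56.2 with both partners, 50.6 with CTCF, 46.0 with RAD21 and 49.9 by themselves. Away from promoters their medians were 54.0 (100 regions), 43.5 (26 regions), 31.4 (91 regions) and 39.8 (1318 regions). Over overlapping pairs, the rank correlation of fold enrichment (Spearman, a description, since both lists share the local chromatin) was 0.44 for CTCF and RAD21 (n = 17528), 0.06 for MAZ and RAD21 (n = 529) and -0.05 for CTCF and MAZ (n = 483).

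The leading regions of each combination, chosen by the percentile of their weakest factor, are given as a description. With all 3 factors, the leading region was that of Gm38708 shown above, where CTCF had a fold enrichment of 35.3, MAZ of 8.80 and RAD21 of 76.5, with the 3 summits within 51 bp. For CTCF+RAD21 it lay between genes (chr1:181888787-181889293), with folds of 67.9 and 58.3 and summits 5 bp apart. For CTCF+MAZ it lay at the promoter of Tab1, a partner of the kinase TAK1, followed by Smarcd1, a subunit of BAF chromatin remodelling complexes, with folds of 28.6 and 8.80, and Cul5, a cullin ubiquitin ligase scaffold. The MAZ+RAD21 combination was led by an intergenic region on chromosome 3 with folds of 5.93 and 13.1, then by the promoters of Tbl1xr1, a subunit of NCoR corepressor complexes, and Usp42, a deubiquitinase, and by a region 1163 bp from Hes1, the Notch target gene, where MAZ had a fold of 14.0 and RAD21 of 9.85. CTCF only was led by promoters of Psmd6, a proteasome subunit, Specc1 and Rpl36, with folds of 64.2, 56.6 and 52.9 and no RAD21 peak called. MAZ only was led by an intergenic region on chromosome 15 (29.7) and the promoter of Ccdc85c (29.6), and RAD21 only by an intergenic region on chromosome 4 with a fold of 31.3 whose nearest TSS, of Nkain3, was 443974 bp away.

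CTCF and RAD21 summits lay close together and MAZ summits farther away. The median distance between overlapping CTCF and RAD21 peaks was 30 bp (interquartile range 15 to 47), with 78.3% within 50 bp. It was 94 bp (41 to 182) for MAZ and RAD21 and 102 bp (45.5 to 197) for CTCF and MAZ, with 30.4% and 29.2% within 50 bp. In regions that also held MAZ, CTCF and RAD21 summits were still 29 bp apart (n = 298).

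The CTCF motif gave these distances a direction. Motif shares were counted in windows of 200 bp on odd-numbered chromosomes and X, which were not used to learn the motif, beside windows 1 kb away on either side. It was found at CTCF summits of 54.5% (53.5 to 55.5) of CTCF+RAD21 regions, where the flanks had 1.17%, and of 49.1% of CTCF only, 35.4% (28.8 to 42.6) of regions with all 3 and 29 of 116 CTCF+MAZ regions. RAD21 only regions had it in 20.4% (18.4 to 22.5) of 1473 RAD21 summits against 0.781% in the flanks, although no CTCF peak was called there. MAZ+RAD21 regions had it at 1 of 118 RAD21 summits (0.847%, interval 0.150 to 4.64), the same share as their flanks. Within strength groups, CTCF peaks with RAD21 had the motif in 39.8% of the weakest and 57.8% of the strongest group, and CTCF peaks without RAD21 in 45.2% and 47.7%.

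Read in the direction of the G-rich strand of the motif, written as the consensus above, CTCF summits had a median position of -10 bp from its centre and RAD21 summits of 19 bp, with 84.9% (83.9 to 85.8) of 5366 RAD21 summits downstream. On the genome the RAD21 summit therefore lay to the right of the CTCF summit at motifs on the plus strand (median 29 bp, n = 2653) and to the left at motifs on the minus strand (median -28 bp, n = 2713). In regions with all 3 factors, MAZ summits had a median position of 66 bp and lay downstream in 79.7% (68.3 to 87.7) of 64 regions. In CTCF+MAZ regions, without RAD21, the MAZ summit was downstream in 55.2% (37.5 to 71.6) of 29.

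**Figure D3:**
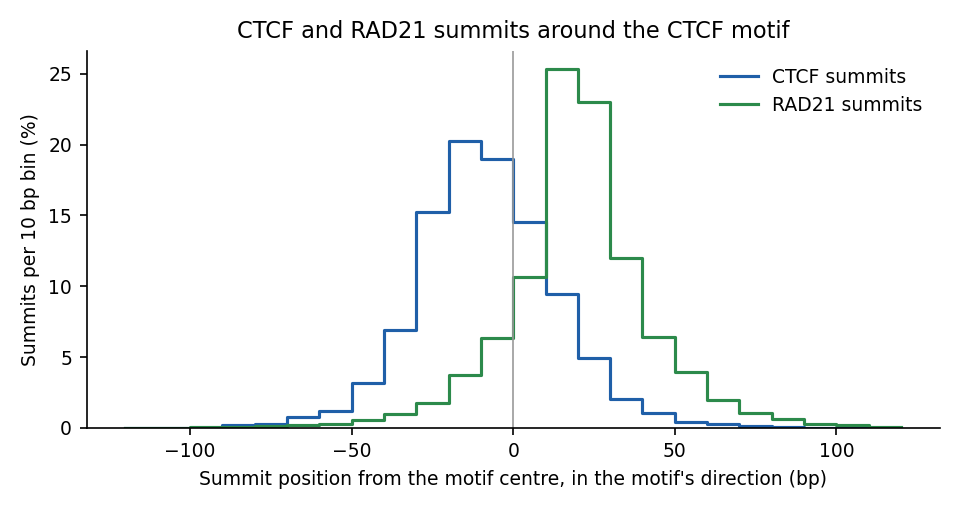
Positions of CTCF and RAD21 summits (bp) from the centre of the CTCF motif, in the motif's direction, as the share of 5366 summits per 10 bp bin (%). The CTCF curve peaks left of the centre (median -10 bp) and the RAD21 curve right of it (median 19 bp).

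Neighbouring motifs of regions with CTCF and RAD21 showed a spacing that went with orientation. Pairs were consecutive motif-bearing regions of the same class on odd-numbered chromosomes and X, so other CTCF regions could lie between them. With RAD21, 25.6% of pairs were convergent, 49.0% tandem and 25.5% divergent, and without it 24.7%, 50.8% and 24.6%. Among 5355 neighbouring pairs of motif-bearing regions with CTCF and RAD21, the median gap was 130658 bp for convergent (motifs facing each other), 83774 bp for tandem and 67802 bp for divergent pairs. Among 2446 pairs of CTCF regions without RAD21 the medians were 166554 bp, 176814 bp and 153955 bp, a different order.

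The sequence around MAZ summits differed from that around CTCF summits of CTCF+RAD21 regions. The letters GGGAGGG, searched on both strands as a short G-rich run of the kind MAZ binds, occurred in 47.5% (45.8 to 49.2) of windows at MAZ only summits against 11.5% of their flanks, in 50.0% of MAZ+RAD21 and 45.7% of CTCF+MAZ MAZ summits and in 31.5% (25.2 to 38.6) of regions with all 3. At CTCF summits of CTCF+RAD21 regions it occurred in 5.69%, below the 8.33% of the flanks. GC content had a median of 69.0% at MAZ only summits and 48.5% at CTCF summits of CTCF+RAD21 regions, with flanks at 48.0% and 47.0%. The ratio of observed to expected CpG was 0.78 and 0.25. RAD21 only summits (GC 48.5%, CpG ratio 0.19) were like the latter, and RAD21 summits of MAZ+RAD21 regions (63.0%, 0.70) were nearer to the former. CTCF summits of CTCF+MAZ regions had a GC content of 66.5%, a CpG ratio of 0.77 and GGGAGGG in 28.4%. Those of regions with all 3 had 65.5%, 0.76 and 21.0%. In GC and CpG both were nearer to MAZ only summits, and the part of promoter location was not tested.

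At gene starts, MAZ was the most frequent factor. Of 21938 protein-coding genes, 21.0% had a MAZ summit within 1 kb of a TSS, 8.99% a CTCF summit and 6.98% a RAD21 summit, and 298 genes, 1.36%, had all 3 at the same TSS. The number with all 3 was 576 within 2500 bp, and 59 within 1 kb for the 6265 strongest peaks of each list. MAZ was the only one of the factors at 3836 genes (17.5%), of which 30.4% (29.0 to 31.9) had an opposite-strand TSS within 1 kb, against 17.7% of all genes. That share was 29.9% (24.7 to 35.7) with CTCF and MAZ, 27.4% (21.0 to 34.8) with MAZ and RAD21 and 24.1% (19.8 to 28.8) of the 345 genes with all 3 at any of their TSSs. At genes with all 3 factors, the nearest MAZ summit lay at a median of -50.5 bp from the TSS, CTCF at -164 bp and RAD21 at -144 bp, upstream being negative. The strand of the CTCF motif was counted by region, on odd-numbered chromosomes and X, for motifs up to 1 kb upstream of the nearest protein-coding TSS. It was that of the gene in 24 of 33 regions with all 3 factors (72.7%, interval 55.8 to 84.9). The share was 53.0% (45.4 to 60.5) of 164 CTCF+RAD21, 60.0% (46.8 to 71.9) of 55 CTCF only and 53.3% (30.1 to 75.2) of 15 CTCF+MAZ regions.

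The genes with all 3 factors at high ranks covered varied functions. The 15 with the highest lowest percentile were Mlf2, Pou2f2, Pxn, Denr, Atp6v1g2, Mllt1, Nfkbil1, Sik2, Snx18, Pdrg1, Abca2, Ube2q1, Caskin2, Pds5b and Tcf7l1. Mlf2 (ENSMUSG00000030120, chr6:124931386-124937238, plus strand) had a CTCF fold of 26.2 at -526 bp, a RAD21 fold of 23.8 at -572 bp and a MAZ peak at percentile 97.3 of its list at -97 bp. At Pou2f2, which encodes an octamer-binding transcription factor, the 3 summits lay between -803 and -858 bp, with a RAD21 fold of 45.6. Pxn (paxillin, an adaptor of focal adhesions) and Denr (a factor in translation reinitiation) had all summits within 135 bp of the TSS. Atp6v1g2, a proton pump subunit, and its opposite-strand neighbour Nfkbil1 shared the same 3 peaks, with a RAD21 fold of 57.4. Pds5b (ENSMUSG00000034021, chr5:150673739-150810690, plus strand), a regulator of cohesin's residence on chromatin, had a CTCF fold of 40.7, a RAD21 fold of 31.9 and a MAZ fold of 6.68, all within 36 bp of the TSS. Tcf7l1, a repressor in the Wnt pathway that restrains pluripotency genes, had folds of 27.3 for CTCF, 32.5 for RAD21 and 6.51 for MAZ.

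Gene lists were read against those shares of all genes (8.99% CTCF, 21.0% MAZ and 6.98% RAD21), with no test. Of 14 genes of the cohesin complex and its regulators, 8 had MAZ, 7 CTCF and 4 RAD21, and Pds5b, Smc3, Stag1 and Stag2 had all 3 at one TSS. Rad21 itself and Wapl, which releases cohesin, had MAZ alone, and Nipbl, which loads cohesin, had CTCF alone. Of 14 pluripotency transcription factors 8 had MAZ, namely Klf2, Klf4, Nanog, Nr5a2, Pou5f1, Sall4, Sox2 and Tbx3, but CTCF was found at Tbx3 alone, which had all 3. MAZ was at 12 of 14 genes for MAZ-like and GC-box zinc finger proteins and Ctcf, including Maz, Ctcf, Vezf1, Sp1 and Patz1, and Patz1 and Zfp341 had all 3 factors at one TSS. Sp2 had a summit of each, but not at the same TSS.

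Genes with names of cytosolic ribosomal proteins had CTCF in 22 of 79 (27.8%, interval 19.2 to 38.6), against 8.99% of all genes, whereas RAD21 was at 5 (6.33%) and MAZ at 16 (20.3%). The name pattern also took in Rpl7l1, a gene like Rpl7, which had CTCF and RAD21 and is 1 of the 22 and of the 5. Rpl11 had all 3, and Rpl36, shown above, was among those with CTCF and neither partner. Of 78 mitochondrial ribosomal protein genes 11 had CTCF, 15 MAZ and 7 RAD21, and Mrpl17 had all 3. Of 39 proteasome subunit genes 7 had CTCF, 3 MAZ and 2 RAD21. Of 39 Hox genes, the homeotic genes of the body axis, 6 had CTCF, 8 MAZ and 5 RAD21, with CTCF and RAD21 together at Hoxa5, Hoxb5, Hoxc5 and Hoxc10. Of 20 developmental transcription factors that are usually silent in stem cells 4 had MAZ (Eomes, Gata4, Neurog1 and Pax7) and 0 had CTCF. Among 18 imprinted genes CTCF was at Gnas, Peg10 and Sgce (16.7%), MAZ at 3 (16.7%) and RAD21 at Gnas (5.56%). Peg10 and Sgce, on opposite strands, shared the same CTCF peak, with a fold of 6.66 at percentile 12.3. The 6 Mcm genes of the replicative helicase had CTCF and RAD21 at Mcm5 and MAZ at Mcm6. Of 67 histone genes 4 had CTCF (5.97%), 2 MAZ (2.99%) and 3 RAD21 (4.48%). Of 1093 olfactory receptor genes 2 had CTCF (0.183%), 0 MAZ and 4 RAD21 (0.366%).

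**Figure D4:**
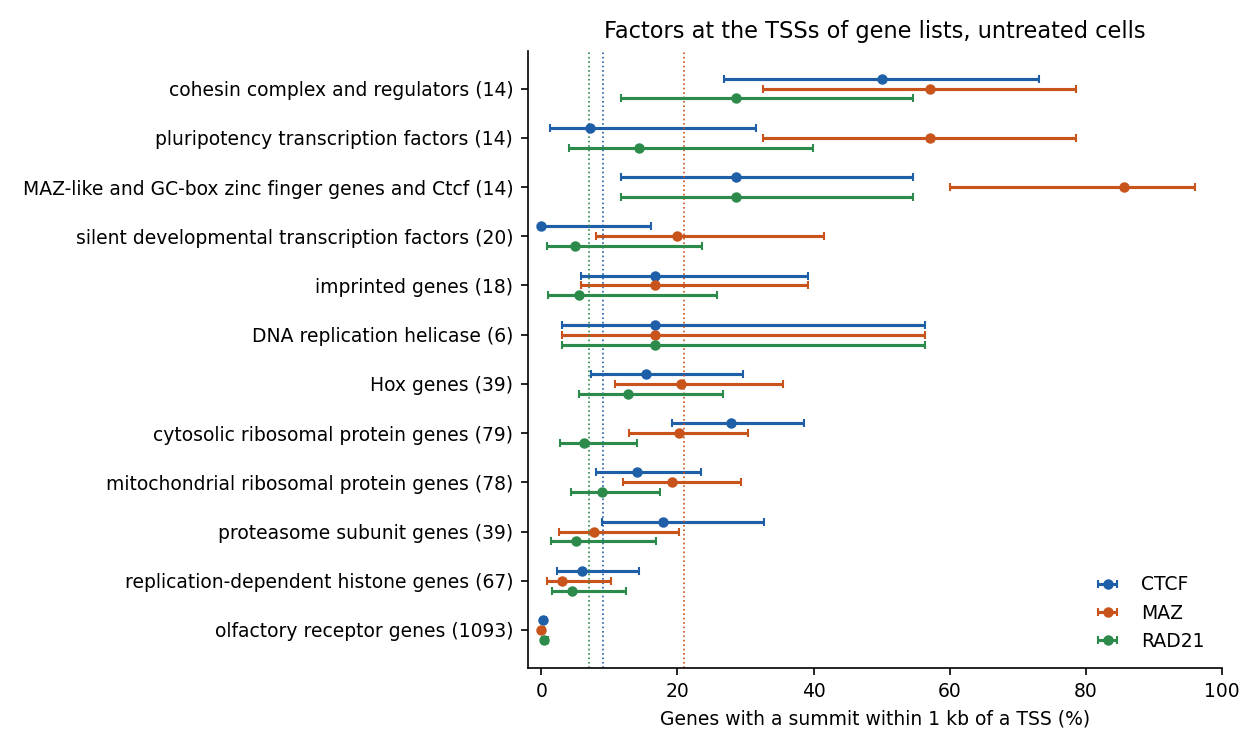
Share of genes (%) in each list with a CTCF, MAZ or RAD21 summit within 1 kb of a TSS in untreated cells, with Wilson 95% intervals and the number of genes in brackets. Dotted lines mark all protein-coding genes (8.99% CTCF, 21.0% MAZ, 6.98% RAD21). MAZ is at 85.7% of the MAZ-like and GC-box zinc finger list, and CTCF at 27.8% of cytosolic ribosomal protein genes.

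Densities along the genome followed the genes for most combinations. On the 19 autosomes CTCF peaks ranged from 7.19 per Mb on chromosome 14 to 16.8 on chromosome 11, MAZ peaks from 1.27 to 4.84 and RAD21 peaks from 5.56 to 12.5 on the same chromosomes. The rank correlation with protein-coding gene density (Spearman over 19 chromosomes, a description) was 0.86, 0.87 and 0.90. It was 0.33 for RAD21 only and 0.08 for MAZ+RAD21 regions. The X chromosome was sparser than the autosomes, by 3.36 times for CTCF, 3.54 for RAD21 and 7.83 for MAZ. It had 5.54 protein-coding genes per Mb, and chromosome 12, with 5.35, had 8.07 CTCF peaks per Mb against 3.12 on X. The copy number of X is not given in the sources used here, and its part was not tested.

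RAD21 only regions, which overlap no CTCF peak by definition, had their nearest CTCF peak at a median of 28883 bp, with 3.19% within 1 kb and 27.8% within 10 kb. For MAZ+RAD21 the median was 27542 bp. Of RAD21 only regions 23.8% (22.2 to 25.5) held a CTCF peak in the ΔMAZ list, and of MAZ+RAD21 regions 5.56% (3.21 to 9.46). Of CTCF only regions 19.5% held a RAD21 peak in ΔMAZ. Of MAZ only regions 4.93% held a RAD21 peak in ΔMAZ and 27.1% (25.9 to 28.3) in ΔCTCF, whose RAD21 list had a depth index 2.19 times that of WT.

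The combinations also differed in how often their peaks were called in the lists of the other conditions. Of all RAD21 peaks of WT 38.9% were called in ΔCTCF. By combination, regions were counted by their strongest RAD21 peak. The share was 39.7% (39.0 to 40.5) for CTCF+RAD21, 73.7% (68.5 to 78.3) with all 3 factors, 78.7% (72.8 to 83.6) for MAZ+RAD21 and 25.9% (24.2 to 27.6) for RAD21 only. Counted over the whole region, MAZ+RAD21 had 80.1% (74.3 to 84.9). In the weakest strength group the shares were 8.38% for CTCF+RAD21, 53.6% (40.7 to 66.0) with all 3, 78.0% (71.1 to 83.6) of 168 for MAZ+RAD21 and 33.6% for RAD21 only. Away from promoters they were 38.9%, 76.8%, 84.9% and 23.9%.

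In ΔMAZ, where the RAD21 list had a depth index 1.29 times that of WT, 83.5% of the RAD21 peaks of WT were called. The share was 94.8% (91.7 to 96.8) with all 3 factors, 89.8% for CTCF+RAD21, 53.7% (47.0 to 60.2) for MAZ+RAD21 and 43.4% (41.6 to 45.3) for RAD21 only. For MAZ+RAD21 regions the ΔMAZ share was thus below the ΔCTCF share, and for CTCF+RAD21 regions above it, between single lists of different depth. In the weakest group, which held most MAZ+RAD21 regions, the ΔMAZ shares were 76.8%, 60.6%, 46.4% (39.1 to 54.0) and 29.6%. In ΔCTCF/ΔMAZ, with a depth index of 0.931, the shares over all strengths were 43.2%, 23.1%, 36.1% and 9.19%.

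**Figure D5:**
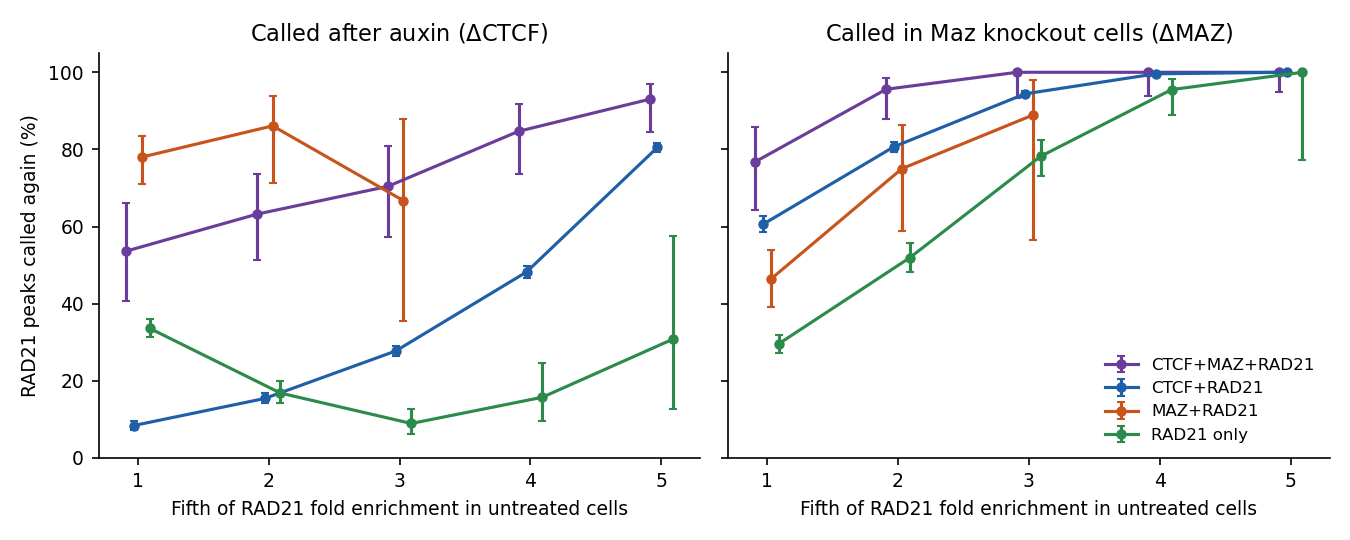
Share of RAD21 regions of untreated cells (%) whose strongest RAD21 peak was called again in the RAD21 list of ΔCTCF (left) and ΔMAZ (right). Shares are by combination and by group of RAD21 fold enrichment in untreated cells from 1 (weakest) to 5 (strongest), with Wilson 95% intervals. In the weakest group 78.0% of MAZ+RAD21 and 8.38% of CTCF+RAD21 regions were called in ΔCTCF, against 46.4% and 60.6% in ΔMAZ.

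The CTCF peaks of WT were called in ΔMAZ in 85.5%, with 94.8% in regions with all 3 factors, 94.6% in CTCF+RAD21, 88.3% in CTCF+MAZ and 67.3% (66.3 to 68.3) in CTCF only. In ΔCTCF the corresponding shares were 20.5% (16.3 to 25.3), 12.3%, 12.8% and 1.39%. The CTCF list had a depth index of 0.281 in ΔCTCF and 0.4 in ΔMAZ, against 0.443 in WT, all relative to RAD21 WT. The CTCF peaks of these combinations also differed in strength, with median percentiles of 83.4, 62.4, 59.9 and 24.6. The part of depth or strength in the CTCF shares was not tested. The MAZ peaks of WT were called in ΔCTCF in 66.3%, with 54.5% (49.0 to 60.0) in regions with all 3, 61.1% (53.8 to 67.9) in CTCF+MAZ, 70.8% (64.4 to 76.5) in MAZ+RAD21 and 66.9% in MAZ only. The MAZ list of ΔCTCF had a depth index of 1.05 against 2.79 for WT, both relative to RAD21 WT, and the part of depth in these shares was not tested. Peaks of the MAZ antibody in the Maz knockout cells overlapped 2 of 308 regions with all 3 factors, 4 of 216 MAZ+RAD21 regions, 14 of 17187 CTCF+RAD21 regions, 4 of 8701 CTCF only regions and none of the 5558 MAZ only, 180 CTCF+MAZ and 2634 RAD21 only regions.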

How the data were processed

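The authors cross-linked the cells, immunoprecipitated CTCF, MAZ or RAD21, aligned the reads to mm10 using Bowtie 2, filtered out duplicates and poor alignments, and called narrow peaks with MACS. Each list is deposited under a single sample. The study describes its displayed data as 1 representative replicate for CTCF and MAZ and a single replicate for RAD21, without saying how libraries entered peak calling. The use of an input control in that step is not given in the sources used here. Per the methods, tracks were scaled by Drosophila spike-in reads or, for RAD21, by total reads, and the lists hold unscaled pileups. The deposited lists give fold enrichment (a ratio of pileup to local background), −log10 p and −log10 q values, a whole-number score (from the −log10 q, not used for a result) and the summit. A further 8 samples were not analysed here.

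Overlap needed 1 bp. The promoter distance was 1000 bp from a TSS of GENCODE protein-coding or long non-coding genes on GRCm38. Motifs were counted in 200 bp windows, with a score limit met by 1.0% of flank windows. The depth index is the lowest background implied by a list divided by its smallest peak width. Scripts used Python 3.11.15, numpy 2.4.6, scipy 1.17.1 and matplotlib 3.10.9 and were tested on simulated data, where 227 of 245 planted motifs were found. Members and gene lists were chosen with earlier results of these data known. Named genes are the 15 with all 3 factors within 1 kb of a TSS and the highest lowest percentile of fold enrichment, the leading regions of each combination by the same measure, and the gene list members with all 3. Other members of the gene lists were named after their values were seen. Alternatives changed the overlap, the q limit, the number of peaks, the partner list, the promoter distance and the summit pairing.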

Additional observations from a re-analysis of the deposited data

How the results depend on the processing

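Of 60 alternative values for 11 results, 27 stayed within the counting interval (1.5 times the value for counts) and 33 moved beyond it. No paired analysis was possible because a single list was compared per antibody, and for the same reason no replicate could be left out. A reciprocal overlap of 50% gave 83.5% for RAD21 peaks with CTCF, 64.5% for CTCF peaks with RAD21, 4.28% for MAZ peaks with CTCF, 4.64% for MAZ peaks with RAD21 and 198 regions with all 3 factors. A gap of up to 500 bp gave 67.2% for CTCF with RAD21, 11.2% for MAZ with CTCF, 11.3% for MAZ with RAD21 and 7.06% of CTCF+RAD21 regions at promoters. With −log10 q of at least 5, RAD21 with CTCF was 88.2% and MAZ with RAD21 6.35%. With at least 10, RAD21 with CTCF was 88.0%, CTCF with RAD21 63.1%, MAZ with CTCF 6.88%, MAZ with RAD21 4.17%, regions with all 3 were 93, MAZ only regions at promoters 81.8% and the CTCF to RAD21 distance 29 bp. The same number of strongest peaks per list (6265) gave 51.6% for RAD21 with CTCF and 51.6% for CTCF with RAD21, 3.75% for MAZ with CTCF, 1.72% for MAZ with RAD21, 83 regions and 59 genes with all 3, and 8.39% of CTCF+RAD21 regions at promoters. Fewer peaks enter by construction under the q limits and the equal number. The partner list of ΔMAZ gave 84.5% for RAD21 with CTCF and 11.8% for MAZ with RAD21. A promoter distance of 500 bp put 4.81% of CTCF+RAD21 and 70.2% of MAZ only regions at promoters, and 2500 bp put 14.0% and 80.7% there and gave 576 genes with all 3. Taking the nearest summit within 500 bp gave 112 bp for MAZ and RAD21. For the overlaps, the cause beyond these constructions was not tested. By the depth index the MAZ list was the deepest (2.79 times RAD21) and the CTCF list the shallowest (0.443 times), and the part of depth in these values was not tested.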
